A study of Mus musculus with 24 samples.

Results

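Mammary glands of tamoxifen-treated mice of 2 transgenic lines were compared. The CYP19A1 line (genotype MMTV-rtTA/tet-op-CYP19A1, 3 mice) was set against the Esr1 line (genotype MMTV-rtTA/tet-op-Esr1, 3 mice), all 20 months old. In both lines the transgene had been induced for 8 months, and a pellet releasing 25 mg of tamoxifen over 60 days was carried under the skin for the last 2 months. These were 6 of the 24 samples of the series, and 19325 of 55487 listed genes were expressed enough to be tested, with at least 1 TPM (a transcript's length-scaled share of all transcripts) in at least 3 of the 24 samples. The other 18 mice, 3 per line in each condition, were untreated at 20 months, given letrozole (2.5 mg over 60 days) at 20 months, or taken at 18 months after 6 months of induction. The 20-month mice without a drug carry a tag, PLA, that the labels do not explain. Every mouse carried both an rtTA activator under the MMTV promoter, which is active mainly in mammary epithelium, and a transgene behind a tet operator, so none shows a gland without a transgene. By the labels, the mice of a group were biological replicates, and each had an animal number of its own.

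Oestrogens are made from androgens by aromatase, the product of CYP19A1, and act on the gland through oestrogen receptor alpha, the product of Esr1. In the mammary duct the receptor sits in hormone-sensing luminal cells, which pass the signal to their neighbours through secreted factors such as amphiregulin (Areg), Wnt4 and Rankl (Tnfsf11). Tamoxifen binds the receptor and blocks or mimics oestrogen depending on the tissue. The comparison thus sets a transgene for the oestrogen-making enzyme against one for the receptor, with the same drug present. Whether hormone or receptor was raised in these mice was not shown by the values below.

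In all 6 libraries the defining markers of mammary epithelium (Epcam, Krt8, Krt18, Krt14 and Krt5) were above 1 TPM, as were those of adipocytes and skeletal muscle. The summed epithelial markers ranged from 184 to 262 TPM in the CYP19A1 tamoxifen mice and from 173 to 384 TPM in the Esr1 tamoxifen mice. The muscle markers Acta1, Ckm and Myh4 summed to 8235 to 11419 TPM in the CYP19A1 mice and 10429 to 14410 TPM in the Esr1 mice. In such bulk samples, fewer cells of a type and less RNA per cell cannot be told apart. Ribosomal RNA models took 0.134% to 3.54% of the TPM in the 6 libraries, and the small cytoplasmic RNA Rn7s took 26.9% to 33.9%.

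Replicate 3 of the Esr1 tamoxifen mice stood apart from replicates 1 and 2 at a set of genes, picked here after their values were seen. Zfp966, a zinc finger gene, had 0.91 and 1.01 TPM in replicates 1 and 2 and 6.8 TPM in replicate 3, against 7.33 to 8.18 TPM in the Esr1 letrozole mice and 0.83 to 2.05 TPM in the Esr1 untreated mice. The ribosomal protein gene Rps2 had 5.41 and 7.22 TPM in replicates 1 and 2 and 164 TPM in replicate 3. In the Esr1 letrozole mice Rps2 had 144 to 172 TPM, and in the other 20 mice it stayed at 11.7 TPM or less. Replicate 3 therefore sat beside the Esr1 letrozole mice at these genes. At genes that were high under tamoxifen it did not: the keratin gene Krt4 had 7.54 TPM in replicate 3, against 0.05 to 0.11 TPM in the Esr1 letrozole mice, and the peptide gene Nmu had 4.19 TPM, against 0 to 0.14 TPM. Of the 195 genes that passed below, replicate 3 was the Esr1 library nearest to the CYP19A1 libraries at 92, replicate 1 at 54 and replicate 2 at 49. What sets this mouse apart was not tested, and results that rest on it are given with and without it.

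**Figure D1:**
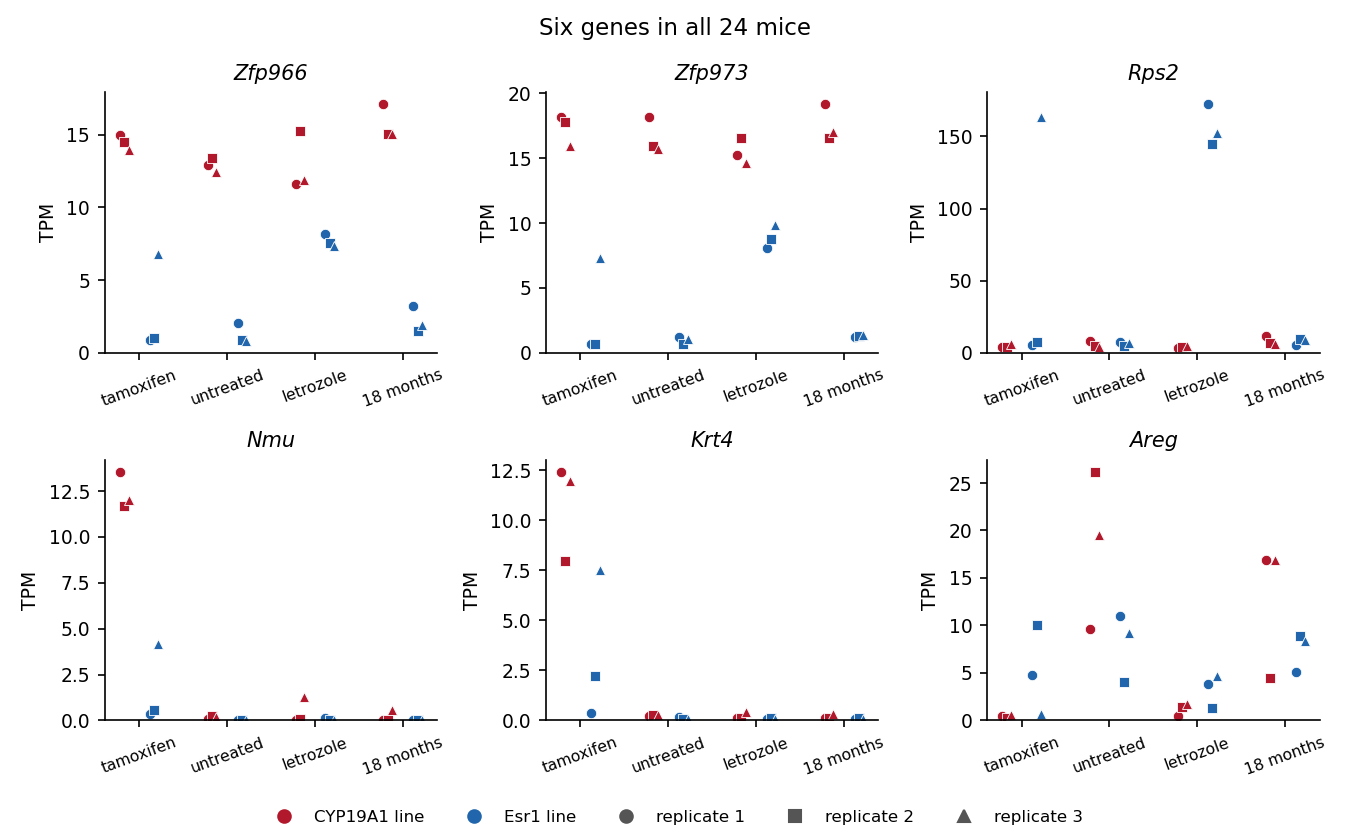
Levels in TPM (vertical axes, linear) of 6 genes in all 24 mice, by condition, with CYP19A1 mice in red left of Esr1 mice in blue and one symbol per replicate number. The triangle of the Esr1 tamoxifen group (replicate 3) lies with the Esr1 letrozole mice for Zfp966, Zfp973 and Rps2, while Nmu and Krt4 reach at most 1.26 and 0.4 TPM outside tamoxifen.

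Under tamoxifen 195 of 19325 genes (1.01%) differed between the lines at an adjusted p under 0.05 in limma on log2(TPM + 1): 127 (0.657%) were higher and 68 (0.352%) lower in the CYP19A1 mice. An unadjusted p under 0.05 was reached by 7.86% of genes. At all 195 the 3 CYP19A1 libraries lay on one side of the 3 Esr1 libraries, as they did at 10.3% (higher) and 7.41% (lower) of all tested genes. The median log2 difference over all tested genes was 0.02, 53.7% lay above 0, and the smallest difference that passed was 0.62. Of the 195, 99 were protein-coding (66 higher, 33 lower), 20 were long non-coding RNAs and 62 were pseudogenes, which made up 31.8% of the genes that passed and 7.59% of those tested. Among the genes that passed, 5 entries (Rpl35a-ps2, Rpl35a-ps3, Rpl35a-ps4, Rpl35a-ps6 and Gm10243) held the same values in all 24 samples, so the 195 genes carry 191 distinct profiles. Without Esr1 replicate 3, 224 genes passed (134 higher, 90 lower), and 163 of them were among the 195. The direction split moved with scaling: 177 higher and 160 lower passed under median-ratio scaling, and 150 higher and 130 lower after ribosomal, Rn7s and mitochondrial RNAs were taken out, so that 52.5% and 53.6% were higher in place of 65.1%. With only the 6 tamoxifen libraries fitted 110 passed, and without CYP19A1 replicate 1 or 2 the count was 128 or 129.

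The neighbouring genes Ifi202b and Ifi205 on chromosome 1, which moved in opposite directions, and the zinc finger genes Zfp966 and Zfp973 on chromosome 2, which moved together, carry much of what follows, so the 250 bases before their annotated starts are shown. The sequences are RefSeq's for GRCm38.p6, on each gene's strand. Capitals mark an interferon-stimulated response element core (GAAA, 2 bases of any kind and GAAA, searched on both strands) in Ifi205 and the only base that differs between the Zfp966 and Zfp973 windows over the 224 bases they share.
Ifi202b (chr1:173982845-173983094, minus strand): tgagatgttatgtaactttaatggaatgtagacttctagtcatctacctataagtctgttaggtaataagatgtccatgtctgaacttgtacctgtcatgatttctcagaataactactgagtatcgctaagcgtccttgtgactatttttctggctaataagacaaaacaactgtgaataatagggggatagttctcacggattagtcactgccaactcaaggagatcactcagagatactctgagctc
Ifi205 (chr1:174031756-174032005, minus strand): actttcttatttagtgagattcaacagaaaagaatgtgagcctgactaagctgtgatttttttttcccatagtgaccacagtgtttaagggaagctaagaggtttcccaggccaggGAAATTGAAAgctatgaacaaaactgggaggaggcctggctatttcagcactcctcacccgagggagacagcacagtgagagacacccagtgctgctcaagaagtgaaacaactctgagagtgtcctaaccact
Zfp966 (chr2:175931101-175931350, minus strand): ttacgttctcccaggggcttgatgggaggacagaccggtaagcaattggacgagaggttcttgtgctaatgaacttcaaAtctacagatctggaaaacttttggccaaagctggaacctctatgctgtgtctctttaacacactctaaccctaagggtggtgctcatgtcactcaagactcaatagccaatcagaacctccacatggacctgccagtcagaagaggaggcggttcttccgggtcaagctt
Zfp973 (chr2:176670272-176670521, plus strand): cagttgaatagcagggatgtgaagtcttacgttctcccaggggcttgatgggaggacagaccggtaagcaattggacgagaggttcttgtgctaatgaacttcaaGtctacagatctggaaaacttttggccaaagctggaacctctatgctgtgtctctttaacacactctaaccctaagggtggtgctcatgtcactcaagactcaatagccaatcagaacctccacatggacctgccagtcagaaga
This core was found in 2.97% of 32817 promoter windows of this length and in 5 (4.85%) of the 103 windows of genes that passed. Those 103 windows belong to 83 genes, as a gene can have several starts, and the 5 belong to Gm4631, Ifi205, Mndal and Tlr6. The palindromic oestrogen response element (GGTCA, 3 bases of any kind and TGACC) was in 0.064% of all windows and in 0 of those 103. A match is a match of letters only, and the absence of one says nothing of a factor.

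The transgenes were looked at first. Esr1, as annotated in the mouse, had 14.9, 15.4 and 14.8 TPM in the CYP19A1 tamoxifen mice, against 14.6, 13.6 and 17.4 TPM in the Esr1 tamoxifen mice. The ranges overlapped, and the log2 difference was -0.0046 ± 0.21 (standard error; 3 mice each; limma adjusted p = 1). Mouse Cyp19a1 was listed at 0, 0.01 and 0 TPM in the CYP19A1 mice and at 0 in all 3 Esr1 mice. Whether these rows collect reads of either transgene is not stated, so neither gene could check the labels.

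Of 19 tested oestrogen-responsive genes none passed, 7 lay above 0 and 12 below, and their median log2 difference was -0.10, against 0.02 over all genes. Pgr, the progesterone receptor and a classical target of the receptor, had 6.71, 8.8 and 8.29 TPM in the CYP19A1 mice, against 9.2, 10.1 and 8.48 TPM in the Esr1 mice. Its ranges overlapped (log2 difference -0.20 ± 0.39, limma adjusted p = 0.975). Areg, an EGF receptor ligand that oestrogen induces in ductal growth, had 0.44, 0.28 and 0.54 TPM in the CYP19A1 mice, against 4.83, 10.1 and 0.64 TPM in the Esr1 mice. All 3 CYP19A1 libraries were low, and so was Esr1 replicate 3. With every mouse the log2 difference of Areg was -1.74 ± 0.59 and did not pass (limma adjusted p = 0.3002), and without Esr1 replicate 3 it was -2.50 ± 0.53 (adjusted p = 0.022). Of 16 alternative settings, this was the only 1 under which Areg passed. In untreated mice Areg had 9.59, 26.2 and 19.5 TPM in the CYP19A1 line and 11.04, 4 and 9.16 TPM in the Esr1 line. The Esr1 library with 4 TPM, replicate 2, had 31.3% of its TPM in ribosomal RNA models, which lowers its other values.

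Wnt4, a secreted signal downstream of progesterone, had 1.72, 1.77 and 2.05 TPM in the CYP19A1 mice, against 3.61, 4.1 and 2.67 TPM in the Esr1 mice. The groups did not overlap, yet the difference did not pass (log2 -0.64 ± 0.22, limma adjusted p = 0.307). Stc2, a secreted glycoprotein, had 20.8, 18.5 and 17.7 TPM against 7.52, 9.72 and 12.2 TPM in the same order of lines, with a log2 difference of 0.91 ± 0.34 (limma adjusted p = 0.400). Among 13 hormone-sensing luminal genes, 12 EGF family genes, 16 Wnt genes and 20 steroid enzymes and receptors none passed with all mice. Their median log2 differences were -0.04, -0.19, -0.09 and 0.20.

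**Figure D2:**
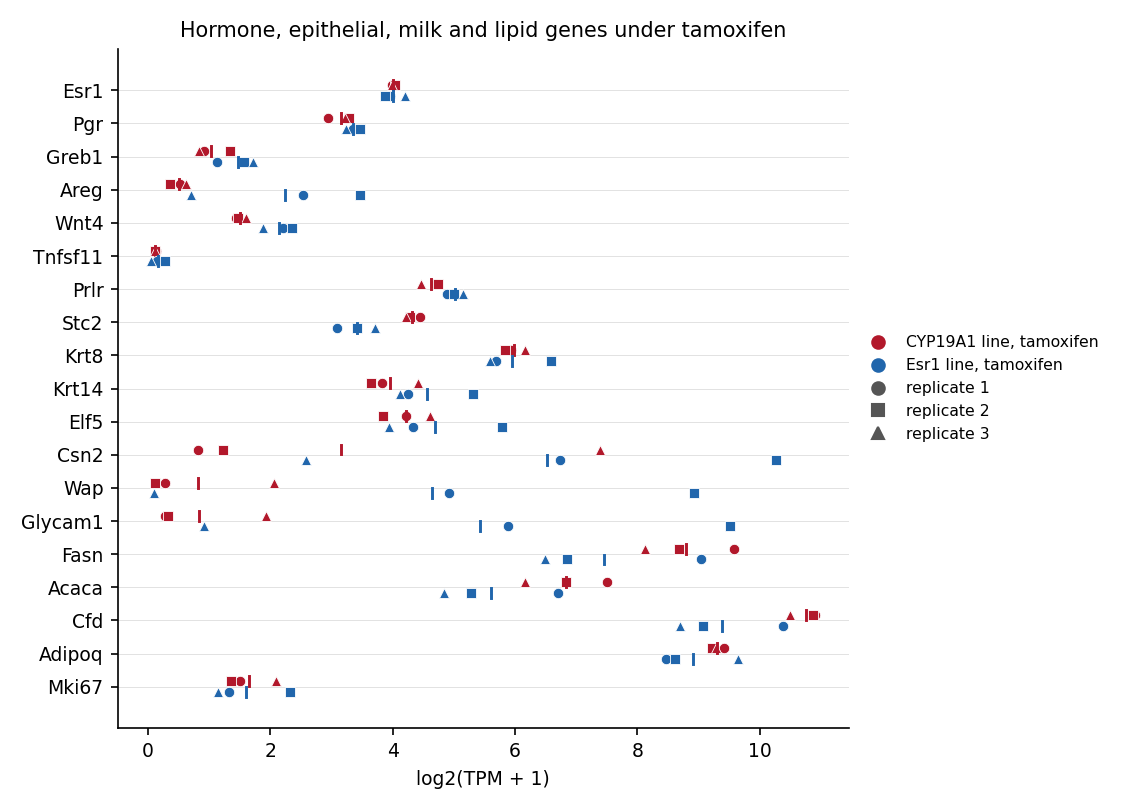
Levels as log2(TPM + 1) (horizontal axis) of hormone, epithelial, milk, lipid and proliferation genes in the 6 tamoxifen mice, CYP19A1 in red above Esr1 in blue, with symbols for replicates and ticks for group means. Esr1 and Pgr overlap between the lines, and Areg is low in the 3 CYP19A1 mice and in Esr1 replicate 3. Csn2, Wap and Glycam1 spread widely within the Esr1 line, while Glycam1 is low in the 3 CYP19A1 mice.

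The largest difference among the named protein-coding genes that passed was at Ifi202b. This gene, an interferon-inducible gene of the Ifi200 cluster (chr1:173962569-173982844), had 26.9, 26.4 and 23.3 TPM in the CYP19A1 tamoxifen mice, against 0.28, 0.44 and 0.33 TPM in the Esr1 tamoxifen mice. The groups lay far apart (log2 difference 4.30 ± 0.20, limma adjusted p = 4.66e-12). Its relatives Mndal and Ifi205 were lower in the CYP19A1 mice. Mndal had 4.28, 3.32 and 3.81 TPM in the CYP19A1 mice, against 20.1, 25.9 and 20.7 TPM in the Esr1 mice (log2 difference -2.27 ± 0.33, limma adjusted p = 0.000401). Ifi205, whose promoter window, like one of Mndal, holds the core described above, had 10.2, 9.97 and 6.54 TPM in the CYP19A1 mice, against 19.5, 34.7 and 36.2 TPM in the Esr1 mice (log2 difference -1.63 ± 0.29, limma adjusted p = 0.00340). Of the 11 tested Ifi200 genes 1 rose and 2 fell, where 1.01% of all genes passed. This list was chosen with earlier results of these data known, so its share is not a test. Under median-ratio scaling, and after ribosomal, Rn7s and mitochondrial RNAs were taken out, 2 rose and 3 fell. Ifi203, a further member, was level at 16.9, 14.2 and 16.03 TPM against 14.0, 17.4 and 15.3 TPM. The members are similar in sequence, so the split of reads among them is uncertain.

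Gchfr, the feedback regulator of the first enzyme of tetrahydrobiopterin synthesis (chr2:119167788-119172389), had 14.7, 16.03 and 9.45 TPM in the CYP19A1 mice, against 0.2, 0.25 and 0.28 TPM in the Esr1 mice. It rose by 3.50 ± 0.20 on the log2 scale (limma adjusted p = 1.40e-10). The enzyme it regulates, Gch1, had 1.74, 1.72 and 1.52 TPM in the CYP19A1 mice and 1.82, 1.93 and 1.27 TPM in the Esr1 mice, and none of the other 7 tested genes of the pathway passed. Kpna2, an importin alpha that carries proteins into the nucleus (chr11:106988629-106999525), had 0.54, 1.08 and 0.71 TPM in the CYP19A1 mice, against 7.87, 11.6 and 8.87 TPM in the Esr1 mice. It fell by 2.55 on the log2 scale (standard error 0.21, limma adjusted p = 7.29e-08). The other 14 tested import receptors did not pass, and the list's median log2 difference was 0.06.

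Further genes separated the lines with no overlap. Psmc3ip, which acts in meiotic recombination, had 12.7, 10.7 and 10.03 TPM in the CYP19A1 mice, against 2.03, 1.66 and 1.82 TPM in the Esr1 mice (log2 difference 2.10 ± 0.17, limma adjusted p = 6.11e-08). Dynlt1b, a dynein light chain gene with near copies beside it, had 73.4, 59.8 and 54.6 TPM in the CYP19A1 mice, against 8.63, 4.93 and 17.8 TPM in the Esr1 mice (log2 difference 2.62 ± 0.29, limma adjusted p = 7.61e-06). The interferon-inducible GTPase gene Gbp6 had 9.82, 9.86 and 9.83 TPM in the CYP19A1 mice, against 1.08, 1.46 and 3.71 TPM in the Esr1 mice. Of 20 interferon-stimulated genes none passed, and their median log2 difference was -0.03. Hspa8, the constitutive Hsc70 chaperone, named here after its values were seen, had 742, 654 and 617 TPM in the CYP19A1 mice, against 172, 231 and 381 TPM in the Esr1 mice (log2 difference 1.43 ± 0.28, limma adjusted p = 0.00911).

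Of 19 tested drug and xenobiotic metabolism genes none passed, and their median log2 difference was 0.22. Single glutathione transferase genes differed. Mgst2, a microsomal enzyme, had 10.4, 7.6 and 7.55 TPM in the CYP19A1 mice, against 0.66, 0.82 and 3.01 TPM in the Esr1 mice. Gstp2 had 6.17, 5.32 and 2.65 TPM in the CYP19A1 mice, against 30.0, 27.9 and 38.6 TPM in the Esr1 mice (log2 difference -2.58 ± 0.39, limma adjusted p = 0.000722). Its close paralog Gstp1 was level, with 115, 121 and 102 TPM against 118, 111 and 129 TPM. Reads can be traded between these copies, so the Gstp2 value is uncertain. Gsta4, which conjugates lipid peroxidation products, had 32.1, 30.8 and 28.1 TPM in the CYP19A1 mice, against 10.8, 8.54 and 33.1 TPM in the Esr1 mice; it did not pass with all mice (limma adjusted p = 0.422) and did without Esr1 replicate 3 (log2 1.56 ± 0.32, adjusted p = 0.012).

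Among lower genes, Prg2, which encodes the major basic protein of eosinophils, had 0, 0.05 and 0.04 TPM in the CYP19A1 mice, against 3.05, 5.23 and 1 TPM in the Esr1 mice. Asb15, a gene known from skeletal muscle, had 0.98, 0.91 and 0.79 TPM in the CYP19A1 mice, against 5.94, 5.13 and 7.75 TPM in the Esr1 mice (log2 difference -1.93 ± 0.38, limma adjusted p = 0.00979). None of the 17 muscle genes passed, and their median log2 difference was -0.26. Cdsn, the corneodesmosin gene of keratinised skin, had 0.92, 0.92 and 0.94 TPM in the CYP19A1 mice, against 5.2, 3.33 and 9.87 TPM in the Esr1 mice. The skin markers Krt1, Krt10 and Lor summed to 1.2 to 1.29 TPM in the CYP19A1 mice and 0.64 to 1.35 TPM in the Esr1 mice.

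**Figure D3:**
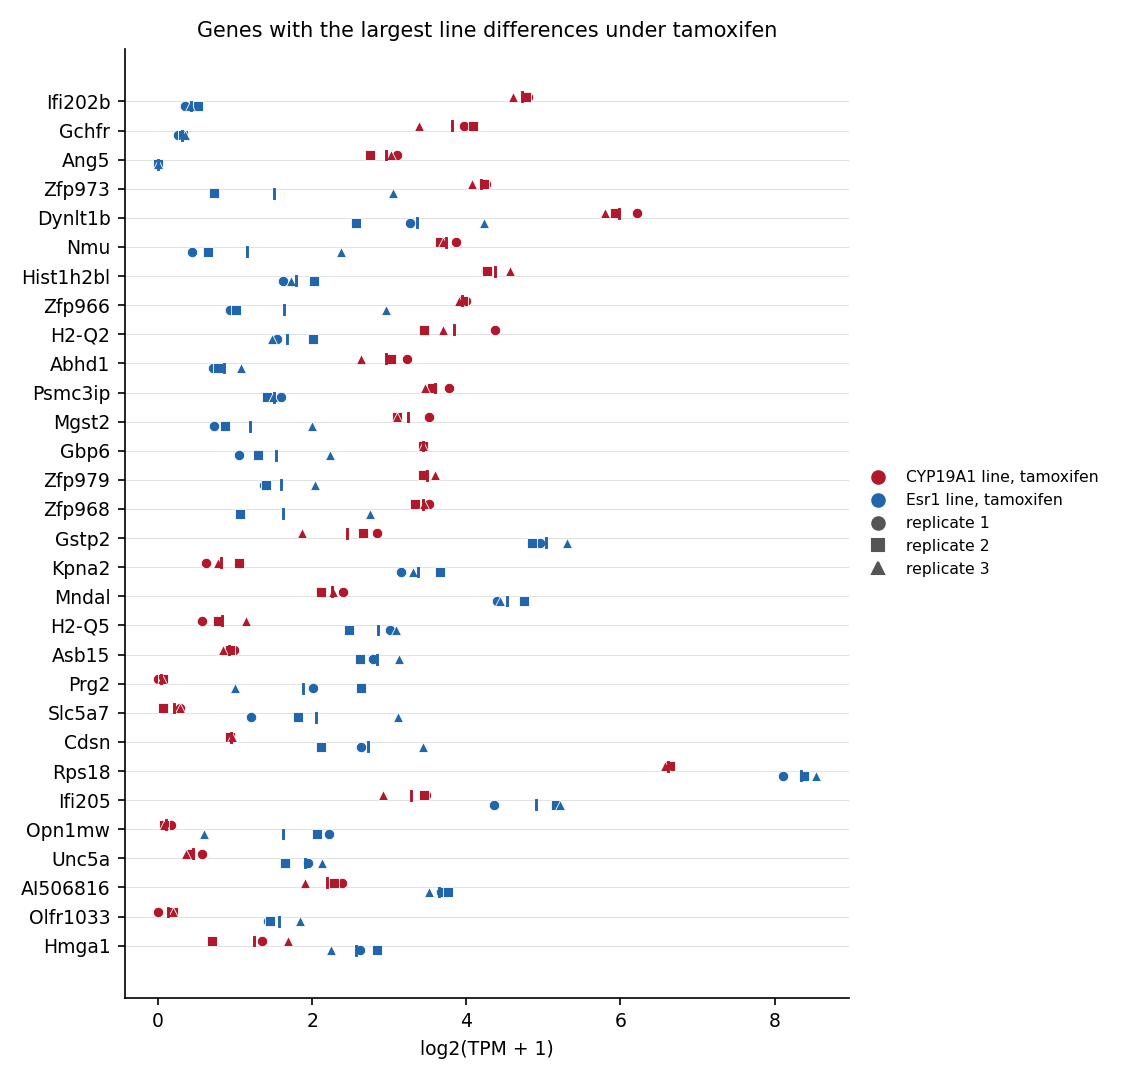
Levels as log2(TPM + 1) (horizontal axis) of the 15 higher and 15 lower named genes with the largest line differences in the 6 tamoxifen mice, CYP19A1 in red above Esr1 in blue, with symbols for replicates and ticks for group means. The lines do not overlap at any of these genes because the choice of genes required it. Esr1 replicate 3 (blue triangles) lies towards the CYP19A1 mice at Zfp973, Zfp966, Zfp968, Nmu, Mgst2 and Gbp6.

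Of 32 named genes that passed, 14 passed under all 17 alternative settings: Ifi202b, Gchfr, Ang5, Hist1h2bl, Abhd1, Psmc3ip, Gstp2, Kpna2, Mndal, Rps18, Unc5a, AI506816, Olfr1033 and Rpl35a. The call was lost with only the 6 tamoxifen libraries fitted for Zfp973, Dynlt1b, Nmu, Zfp966, Mgst2, Gbp6, Zfp968, Prg2, Slc5a7, Cdsn, Ifi205, Opn1mw, Hmga1 and Ighg1, and under other settings for H2-Q2, Zfp979, H2-Q5 and Asb15. Without Esr1 replicate 3, H2-Q2 (adjusted p = 0.137), H2-Q5 (0.0966), Cdsn (0.0811), Slc5a7 (0.0522) and Ighg1 did not pass. Ang5, an angiogenin family gene, had 7.56, 5.71 and 7.14 TPM in the CYP19A1 mice and was listed at 0 in all 12 Esr1 mice.

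The positions of the genes that passed were then listed. RefSeq gave a position for 157 of the 195 (80.5%), and 63 of them stood in 23 runs with gaps of at most 1 Mb, 19 of which held 2 genes. The share of all tested genes that would fall in such runs was not computed. The largest run, chr2:175057954-177206497, held 13 genes that passed of 27 tested there, and all 13 were higher in the CYP19A1 mice. Over all tested genes 1.01% passed, but every run starts and ends at a gene that passed, so the share inside it is raised by construction. Zfp966 had 14.97, 14.5 and 13.9 TPM in the CYP19A1 mice, against 0.91, 1.01 and 6.8 TPM in the Esr1 mice (log2 difference 2.32 ± 0.35, limma adjusted p = 0.000621). Zfp973 had 18.2, 17.8 and 15.9 TPM in the CYP19A1 mice, against 0.66, 0.65 and 7.28 TPM in the Esr1 mice (log2 difference 2.69 ± 0.37, limma adjusted p = 0.000217). In both, 2 Esr1 mice were near 1 TPM or under it and replicate 3 lay in between. Without that mouse the log2 differences were 2.98 for Zfp966 and 3.46 for Zfp973. Among 12 genes of the run with a promoter window, 6, counting Zfp966 itself, were over 95% identical to the Zfp966 window over the stretch of at least 200 bases that overlapped at the best offset, and the window of Zfp967 was identical over its 250 bases. Reads from such copies can be shared out among them, so the level of each member is uncertain.

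On chromosome 17 a run at chr17:35342307-36111723, in the major histocompatibility complex, held 4 genes that passed of 37 tested there: H2-Q2 and the pseudogene H2-T-ps were higher, and H2-Q5 and Cdsn were lower. The class Ib genes H2-Q2 and H2-Q5 are near copies of other class I genes. H2-Q2 had 19.7, 9.99 and 12.02 TPM in the CYP19A1 mice, against 1.91, 3.05 and 1.78 TPM in the Esr1 mice (log2 difference 2.17 ± 0.51, limma adjusted p = 0.048). It did not pass under 10 of 17 alternatives, among them the replicate block and the leaving out of any 1 of the 6 tamoxifen libraries. Of the tested genes with a position, 2.34% on chromosome 2 passed, 2.13% on chromosome 17 and 2% on chromosome 1. Over all chromosomes 157 of 16234 such genes passed, and 1.01% of all tested genes with or without a position.

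Ribosomal protein genes and their pseudogenes differed as well, and reads can be traded among them. Rps18 had 97.5, 98.6 and 94.8 TPM in the CYP19A1 mice, against 274, 333 and 369 TPM in the Esr1 mice (log2 difference -1.73 ± 0.24, limma adjusted p = 0.000256). Rpl35a had 98.9, 94.8 and 106 TPM in the CYP19A1 mice, against 229, 285 and 234 TPM in the Esr1 mice (log2 difference -1.3012 ± 0.19, limma adjusted p = 0.000267). Each of the 5 identical Rpl35a copies went the other way, with 60.0, 55.5 and 58.6 TPM in the CYP19A1 mice, against 1.01, 1.1 and 0.63 TPM in the Esr1 mice. Rpl15-ps3 was listed at 0 in the 3 CYP19A1 mice and had 60.6, 56.7 and 64.5 TPM in the Esr1 mice. Over 19 ribosomal protein genes 2 fell, where 0.352% of all tested genes did, and the median log2 difference was 0.07.

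Antibody and antigen presentation genes were examined next. Ighg1, the constant region of IgG1, had 92.0, 48.7 and 67.0 TPM in the CYP19A1 mice, against 5.16, 17.9 and 4.19 TPM in the Esr1 mice (log2 difference 3.01 ± 0.64, limma adjusted p = 0.022). It was the 1 of 15 plasma cell genes that passed, where 1.01% of all tested genes did. It did not pass without CYP19A1 replicate 1, 2 or 3, without Esr1 replicate 1, or without Esr1 replicate 3 (adjusted p = 0.101). The plasma cell markers Jchain and Mzb1 summed to 62.6 to 75.9 TPM in the CYP19A1 mice and 18.0 to 102 TPM in the Esr1 mice. Igkc, the kappa light chain, had 755, 725 and 627 TPM in the CYP19A1 mice and 499, 974 and 229 TPM in the Esr1 mice. Iglc1, a lambda light chain, went the other way with 4.25, 3.35 and 3.15 TPM against 78.4, 55.1 and 7.47 TPM (log2 difference -2.88 ± 0.77, limma adjusted p = 0.103; without Esr1 replicate 3 -3.87 and 0.006). The pseudogene H2-Ea-ps, named after its values were seen, had 46.7, 25.4 and 32.7 TPM in the CYP19A1 mice, against 1.12, 1.4 and 0 TPM in the Esr1 mice (limma adjusted p = 0.00213). None of 10 MHC class II genes, 16 T and NK cell genes, 11 B cell genes or 17 macrophage genes passed, with median log2 differences of -0.11, 0.18, -0.46 and -0.00.

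Epithelial and milk genes varied widely within the lines. Glycam1, a mucin of milk and lymph nodes, had 0.21, 0.25 and 2.81 TPM in the CYP19A1 mice, against 58.3, 727 and 0.88 TPM in the Esr1 mice. Csn2, beta-casein, had 0.77, 1.35 and 167 TPM in the CYP19A1 mice, against 105, 1235 and 4.98 TPM in the Esr1 mice. The groups overlapped at both, and Esr1 replicate 2, the mouse with the most epithelial marker RNA, was highest. Of 15 milk genes 14 lay below 0, none passed, and the median log2 difference was -0.71; Glycam1 had the smallest p (log2 difference -4.59 ± 1.98, limma adjusted p = 0.546). The medians were -0.44 over 14 secretory luminal progenitor genes, -0.17 over 15 pan-epithelial genes, -0.25 over 14 basal genes and 0.04 over 20 proliferation genes, again with none passing.

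No gene of the fat lists passed with all mice and the settings of the report. All 18 white adipocyte genes had a positive log2 difference, with a median of 0.53 and a range of 0.29 to 1.37, where 53.7% of all tested genes lay above 0. Cfd, the adipocyte protease adipsin, had 1920, 1878 and 1435 TPM in the CYP19A1 mice, against 1333, 535 and 415 TPM in the Esr1 mice (log2 difference 1.37 ± 0.45, limma adjusted p = 0.257). Fasn, fatty acid synthase, had 766, 407 and 279 TPM in the CYP19A1 mice, against 522, 114 and 89.0 TPM in the Esr1 mice (log2 difference 1.34 ± 0.55, limma adjusted p = 0.496). Without Esr1 replicate 1 Fasn passed (2.13 ± 0.47, limma adjusted p = 0.035). Elovl5, a fatty acid synthesis gene, passed only after ribosomal, Rn7s and mitochondrial RNAs were taken out (0.48 ± 0.12, limma adjusted p = 0.042). Adipoq, the adipocyte hormone adiponectin, had 680, 594 and 620 TPM in the CYP19A1 mice, against 354, 390 and 803 TPM in the Esr1 mice, so that replicate 3 was the highest of the 6. The 16 fatty acid synthesis genes had a median of 0.48 with 3 below 0, the 18 brown adipocyte and fat oxidation genes a median of 0.26 with 4 below 0, and the 19 respiratory chain genes a median of 0.32, all 19 above 0. The 15 endothelial genes had a median of 0.30. The adipocyte markers Adipoq, Plin1 and Fabp4 summed to 2720 to 3166 TPM in the CYP19A1 mice and 1775 to 3924 TPM in the Esr1 mice. The part of the adipocyte content of each gland in these values was not tested.

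**Figure D4:**
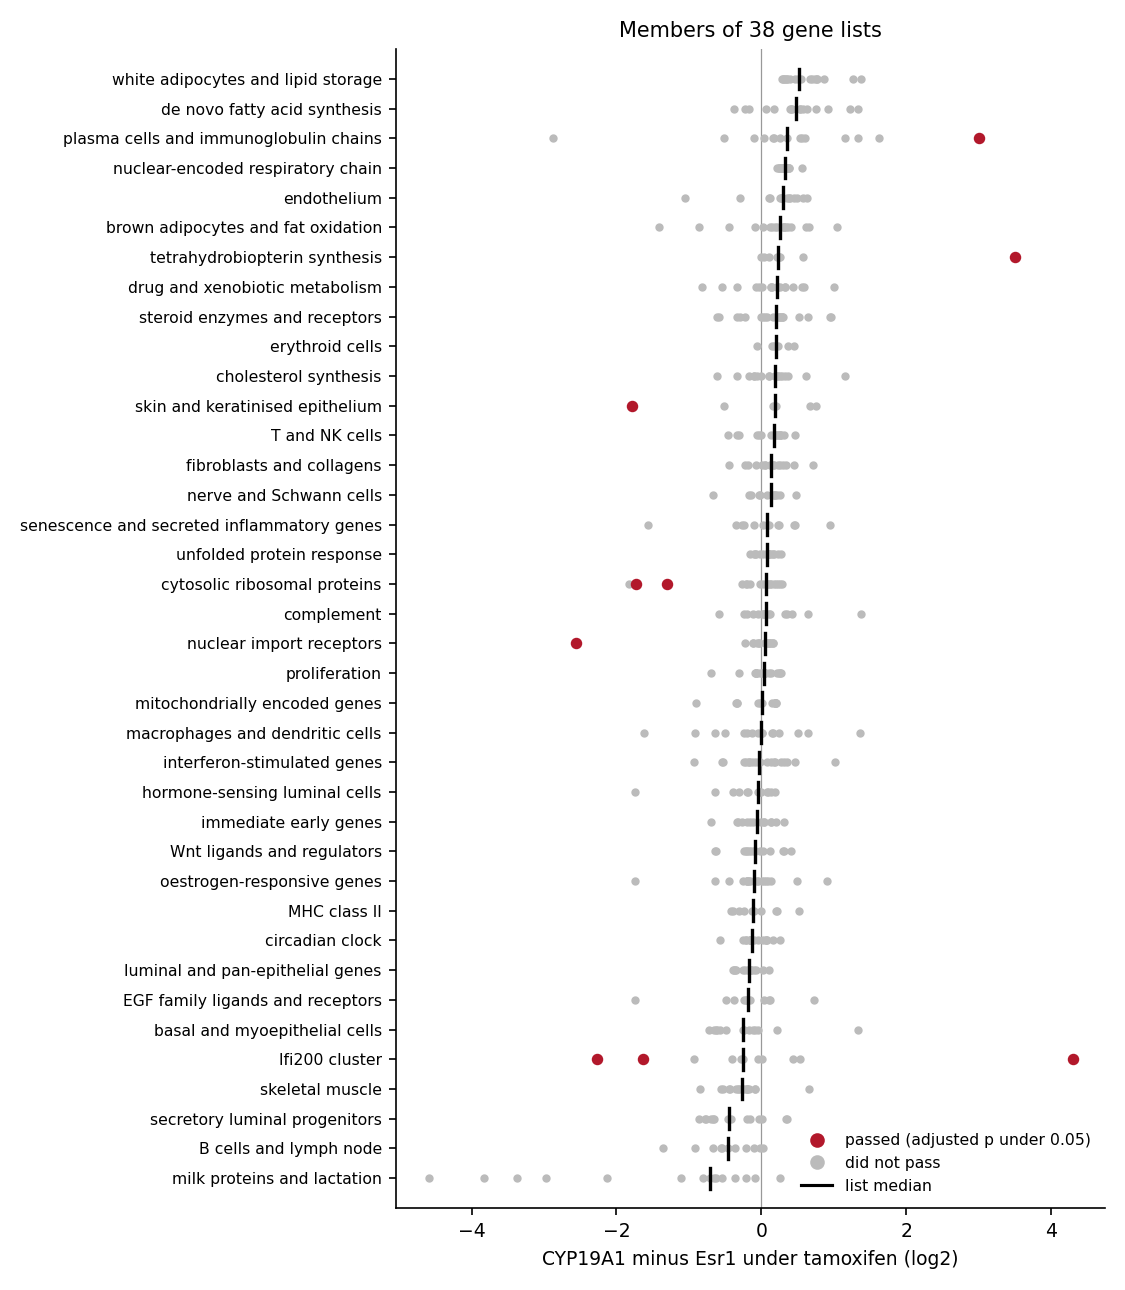
Log2 differences, CYP19A1 minus Esr1 under tamoxifen (horizontal axis), of the tested members of 38 gene lists (rows, sorted by median), with members that passed in red, others in grey and a black tick at each median. Of 552 distinct tested members 9 passed (1.63%, against 1.01% of all genes), and they fell in 6 lists. The lists were chosen with earlier results of these data known, so the 2 shares set side by side are not a test. White adipocytes had the highest median and milk proteins the lowest.

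The same line difference was then read in the other 18 mice, which share no animal with the tamoxifen groups. All 4 line differences use the same estimate of each gene's spread, from the shared fit, so the counts that passed are not independent of each other. Of the 195 genes, 185 (94.9%) differed in the same direction in untreated mice, 186 (95.4%) under letrozole and 185 (94.9%) at 18 months; over all tested genes the matching shares were 56.9%, 50.7% and 62.1%. In untreated mice 142 of the 195 passed in the same direction, which is 72.8% of the tamoxifen genes and 13.9% of the 1019 genes (5.27%) that passed there. Under letrozole 93 did (47.7% of the 195, 53.1% of 175 genes, 0.906%), and at 18 months 127 did (65.1% of the 195, 48.5% of 262 genes, 1.36%). The direction was shared in all 3 other conditions by 178 genes, and 79 passed in all 4. Ifi202b had 20.7 to 27.4 TPM in untreated and letrozole CYP19A1 mice, against 0.02 to 0.93 TPM in the matching Esr1 mice. Kpna2 had 1.08 to 2.26 TPM in CYP19A1 mice of the 3 other conditions, against 8.49 to 23.9 TPM in Esr1 mice. These genes thus separated the lines with and without tamoxifen.

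**Figure D5:**
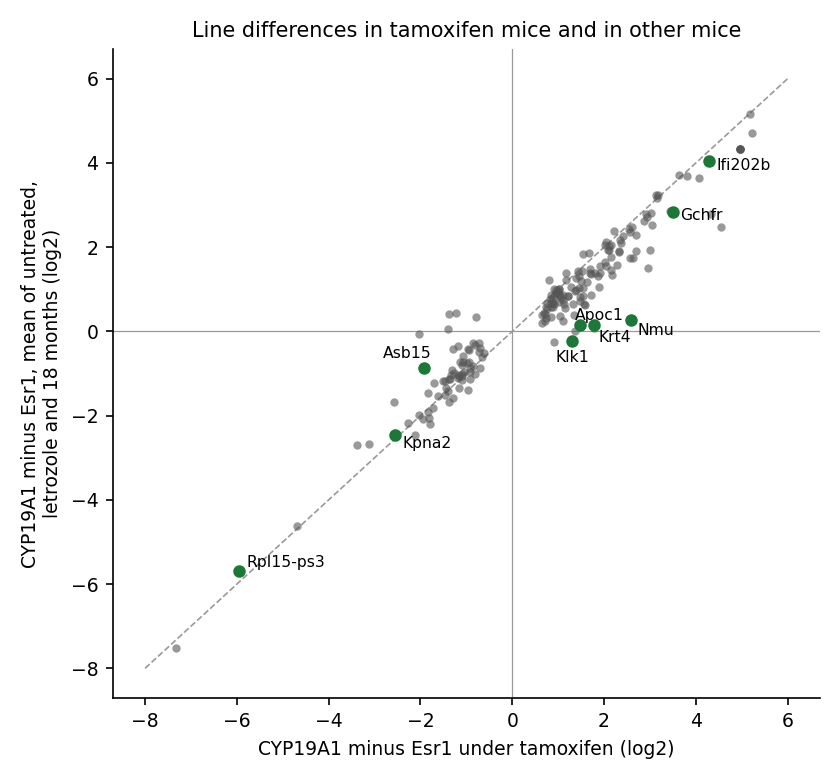
Each point is one of the 195 genes that passed under tamoxifen: its log2 difference, CYP19A1 minus Esr1, in tamoxifen mice (horizontal axis) and its mean over untreated, letrozole and 18-month mice (vertical axis), with the dashed line marking equality. Most points lie near the line, among them Ifi202b, Gchfr and Kpna2, while Nmu, Krt4, Klk1 and Apoc1 lie near 0 on the vertical axis; differences of genes listed at 0 in a line, such as Rpl15-ps3, depend on the pseudocount of 1.

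Of the 195 genes, 38 passed in none of the other conditions, and a few of these, picked after their values were seen, were nearly silent without tamoxifen. Nmu, which encodes the neuropeptide neuromedin U (chr5:76333495-76363777), had 13.5, 11.7 and 12 TPM in the CYP19A1 tamoxifen mice, against 0.36, 0.57 and 4.19 TPM in the Esr1 tamoxifen mice (log2 difference 2.59 ± 0.35, limma adjusted p = 0.000160). In the other 18 mice it reached at most 1.26 TPM, in a CYP19A1 letrozole mouse. Krt4, a keratin of mucosal epithelia, had 12.4, 7.98 and 11.98 TPM in the CYP19A1 tamoxifen mice, against 0.37, 2.24 and 7.54 TPM in the Esr1 tamoxifen mice (log2 difference 1.79 ± 0.37, limma adjusted p = 0.015). It was at or under 0.4 TPM in the other 18 mice. Klk1, tissue kallikrein, had 4.34, 3.95 and 3.24 TPM in the CYP19A1 tamoxifen mice, against 0.06, 1.96 and 1.39 TPM in the Esr1 tamoxifen mice (log2 difference 1.301 ± 0.27, limma adjusted p = 0.014). All 3 CYP19A1 mice were above all 3 Esr1 mice at each of these genes, but the lines were apart at all 195 genes.

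Apoc1, an apolipoprotein gene that lipid-laden macrophages express, differed in another way. It had 68.6, 78.5 and 60.1 TPM in the CYP19A1 tamoxifen mice, against 16.6, 29.2 and 29.1 TPM in the Esr1 tamoxifen mice (log2 difference 1.47 ± 0.22, limma adjusted p = 0.000413). Untreated mice had 62.1, 33.6 and 38.8 TPM in the CYP19A1 line and 47.5, 59.2 and 55.0 TPM in the Esr1 line, where the ranges overlapped. Its neighbour Apoe was level under tamoxifen, at 781, 756 and 704 TPM against 536, 1009 and 713 TPM. The macrophage markers Adgre1 and Csf1r summed to 36.9 to 37.9 TPM in the CYP19A1 mice and 28.2 to 51.8 TPM in the Esr1 mice. Car12, a carbonic anhydrase gene that oestrogen raises in human breast cancer cells, had 0.68, 0.66 and 0.67 TPM in the CYP19A1 mice, against 1.94, 4.97 and 2.93 TPM in the Esr1 mice (log2 difference -1.2962 ± 0.27, limma adjusted p = 0.015).

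Whether the line difference itself changed with tamoxifen was tested by interaction terms. With all mice, limma passed 0 of 19325 genes (0%) for tamoxifen minus untreated, tamoxifen minus letrozole, or tamoxifen minus the mean of the 3 other conditions, and 2021 (10.5%), 853 (4.41%) and 801 (4.14%) genes had an unadjusted p under 0.05. The smallest adjusted p was 0.076, 0.167 and 0.137. Against untreated mice 46 genes (40 higher, 6 lower) passed with a skeletal muscle score as covariate and 8 under median-ratio scaling. Against untreated mice the apolipoprotein genes Apoc1 and Apoc2 came closest with the RNA gene Gm27405, with interactions of 1.77 for Apoc1 and 1.46 for Apoc2 (adjusted p = 0.076 for each). For Nmu the interaction against the 3 other conditions was 2.31 ± 0.41 (adjusted p = 0.137). Without Esr1 tamoxifen replicate 3, 6, 28 and 6 genes passed. Nmu was among them in all 3 tests, with an interaction of 2.92 ± 0.29 against the 3 other conditions (adjusted p = 7.27e-05), and Krt4 in all 3, with 2.30 ± 0.28 (adjusted p = 0.00108). Apoc1 passed against untreated mice (1.90 ± 0.32, adjusted p = 0.035). Zfp966, Zfp973, Rps2 and Rpl34 were among the 28 against letrozole, the condition whose Esr1 mice resembled replicate 3 at these genes. Whether these genes passed depended on that mouse.

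List medians of the line difference also varied by condition. Proliferation genes had a median log2 difference of 0.04 under tamoxifen and -1.02 in untreated mice, where 11 of 20 passed; over all genes in untreated mice the median was 0.02 and 5.27% passed. T and NK cell genes had 0.18 under tamoxifen and -0.92 in untreated mice, where 7 passed. Hormone-sensing luminal genes had -0.04 under tamoxifen and 0.68 in untreated mice, where 6 passed. Pgr, one of these, had 8.3, 12.3 and 12.4 TPM in untreated CYP19A1 mice, against 4.73, 1.33 and 5.23 TPM in untreated Esr1 mice (log2 difference 1.44, limma adjusted p = 0.039). No member of these lists passed the interaction test against untreated mice, with smallest adjusted p of 0.299 for proliferation, 0.201 for T and NK cells and 0.298 for hormone-sensing cells. One untreated Esr1 library, replicate 2, had 31.3% of its TPM in ribosomal RNA models. The line differences given for untreated mice, with the 1019 genes that passed there, include this library and were not computed without it. Without this library 253 genes passed under tamoxifen, and 0 passed the interaction test against untreated mice.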

How the data were processed

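Mammary gland RNA of 24 mice was sequenced from total RNA after ribosomal RNA depletion, in strand-specific libraries, per the labels' protocols. RSEM 1.3.1 and STAR 2.7.9a are listed in the submitters' processing notes, beside Trim Galore 0.6.5, the build mm10 and FastQC 0.11.9, without the role of each; no annotation is stated. The authors deposited TPM per gene, which keeps no read depth, so depth is unknown and no counting interval was computed. Tests ran in limma 3.58.1 (R 4.3.3, trend and robust settings) on log2(TPM + 1), in a single fit of 8 groups of 3 with 16 residual degrees of freedom, which shares the spread among groups. Genes needed 1 TPM in 3 of 24 samples. The threshold was 0.05 for the p adjusted by Benjamini-Hochberg over all tested genes. A fold change on this scale understates changes of low genes; errors are standard errors. The script was tested on simulated data. Named were both transgenes; by size of difference, 15 genes at most in each direction that had a gene name, passed without overlap and averaged at least 2 TPM in the higher line, and from each list the members that passed or the 3 with the smallest p; other names were chosen after their values were seen, and some items are not reported here. The lines compared and the gene lists were chosen with earlier results of these data known. Positions and promoters came from RefSeq GRCm38.p6. Alternatives were other pseudocounts, filters, scalings, fits, a muscle covariate, a replicate block and each library left out.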

Additional observations from a re-analysis of the deposited data

How the results depend on the processing

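The count of 195 genes under tamoxifen became 337 under median-ratio scaling and 110 with only the compared groups fitted, of which 194 and 83 were among the 195, and ranged from 128 to 224 with 1 tamoxifen library left out; it was 253 without untreated Esr1 replicate 2, a setting chosen after seeing the data. For the interactions, where 0 genes passed, the counts against untreated mice were 4 with no filter on low values, 8 under median-ratio scaling, 1 after ribosomal, Rn7s and mitochondrial RNAs were taken out, 1 without trend or robust settings and 46 with a skeletal muscle covariate, and 0 to 6 with 1 library left out. Against letrozole they were 3 with no filter, 1 under median-ratio scaling, 1 with only the compared groups fitted, 1 without trend or robust settings, and 0 to 28 with 1 library left out. Against the 3 other conditions they were 3 with no filter and 0 to 6 with 1 library left out. The highest value of each range of counts came without Esr1 tamoxifen replicate 3. The cause of these shifts was not tested. The log2 difference of Esr1, -0.0046 with all mice, ranged from -0.0742 to 0.0911 with 1 library left out and was 0.0013 without CYP19A1 replicate 1 and 0.0058 without replicate 3. Signs also turned, far from the threshold, without Esr1 replicate 2 for Krt19 (range with 1 library left out -0.7318 to 0.0315) and Ier3 (-0.4593 to 0.0686). Replicate numbers did not pair the mice: same-numbered mice had correlations of 0.01, -0.15 and -0.11 in their deviations from the group means, and no CYP19A1 mouse correlated best with its own number. With a replicate block 175 genes passed, 168 of them among the 195. Of 2067 further values of single genes, 1977 kept their direction and side of the threshold, and of 646 counts of list members that passed, 622 stayed within 1.5 times the count with all mice and the settings of the report. TPM without counts limits what can be said of genes near 0, and 3 mice per line limit all comparisons.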
